A study of Homo sapiens with 15 samples.

Results

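The genes described here are 9 that set the supply of deoxyribonucleoside triphosphates (dNTPs), the building blocks of DNA: the ribonucleotide reductase subunits RRM1, RRM2 and RRM2B, the thymidylate enzymes TK1, TYMS, DUT, DCTD and DTYMK, and the dNTP hydrolase SAMHD1. They were chosen by symbol, as a pathway, out of 23368 genes in the deposited table, and each was found there once. All 9 passed the filter on low values, with 286 to 17082 reads per library.

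Ribonucleotide reductase turns ribonucleotides into deoxyribonucleotides and is built from a large catalytic subunit, RRM1, and a small subunit that carries the radical needed for the reaction. The small subunit is RRM2 in cells that replicate DNA, and RRM2B (p53R2), a known p53 target, can take its place outside S-phase and in mitochondrial DNA supply. Thymidine nucleotides reach the pool either by salvage through TK1 or by new synthesis through TYMS, which methylates dUMP, and SAMHD1 breaks dNTPs down again.

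RNA was sequenced from U2OS cells, an established osteosarcoma line with wild-type p53, treated with Nutlin, which blocks the p53 ubiquitin ligase MDM2, or with its solvent DMSO. Cells were taken in 3 states: growing without synchronisation (asynchronous), held in a double thymidine block (non-released), or let out of that block into S-phase. The 6 groups were Nutlin asynchronous (3 libraries) and DMSO asynchronous (3), Nutlin non-released (2) and DMSO non-released (2), and Nutlin S-phase (2) and DMSO S-phase (3). Both the non-released and the S-phase groups had thymidine at 2 mM for 16 h, 8 h without it and 16 h with it again, Nutlin or DMSO went on 4 h before release or continued block, and S-phase cells were collected at 4 h from release, Nutlin still being present. Nutlin was at 10 µM, the prefix of that unit being missing in the labels and taken as micro, and the sources used here do not state how long asynchronous cells had it. As background, excess thymidine raises dTTP, which slows the reduction of CDP by ribonucleotide reductase, so the block itself acts on the pathway described.

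Values are the authors' variance-stabilised expression values, on a log2 scale at high expression, and reads divided by a size factor per library (normalised reads) were recovered from them. Recovered reads assigned to genes were 6.05 to 23.4 M per library (M for mega), with a median of 15.9 M. A difference is the first group minus the second on the deposited log2 scale, it was tested with limma over 14298 genes, and it counted as changed when its Benjamini-Hochberg adjusted p was under 0.05. Nothing in the labels tells whether replicates were grown separately, so a p-value here reflects only the spread among these libraries, which may be technical. The library labelled DMSO asynchronous replicate 3 stood apart: of 18 epithelial markers 16 were at their highest there, with a summed level of 45067 normalised reads against 12637 to 17680 in the other libraries, and CDKN1A and MDM2, both p53 targets, were at 17534 and 27816, above all 3 Nutlin asynchronous libraries. KRT19, an epithelial keratin, had 7826 normalised reads there, against 4 to 34 in the other libraries, and ESR1, the oestrogen receptor, had 1434, against 2 to 23. These values go against its label, and whether it holds U2OS cells treated with DMSO alone was not tested. It enters every DMSO asynchronous mean of 15 libraries. It also enters the spread per gene, which all 6 groups share in the fit of 15, and so every test with 15. With 15 libraries CDKN1A and MDM2 passed no test of Nutlin against DMSO, and with 13 they passed in all 3 states, at 1.44 to 2.1 and 1.73 to 2.15. In non-released cells, whose groups lose no library, the CDKN1A difference was 1.44 ± 0.60 with 15 and 1.44 ± 0.09 with 13. CCNE2, a cyclin of S-phase entry, was higher in non-released than in asynchronous cells by 1.80 ± 0.13 with Nutlin and 1.40 ± 0.13 with DMSO, and the mitotic cyclin CCNB1 was lower, with differences of -0.55 ± 0.16 and -0.66 ± 0.16. DMSO S-phase replicate 2 had the fewest reads assigned to genes, at 6.05 M, and a mean correlation across genes of 0.9773 with its own group. Results below are from all 15 libraries unless 13 are named, and each call of the 9 genes that was lost or gained with the 13 left without both is given. Blood markers summed to 57 to 131 normalised reads per library, with CD3E and NKG7 at 0 in all, and bone and mesenchymal markers to 60465 to 89162, with TWIST1 at 0 throughout.

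**Figure D1:**
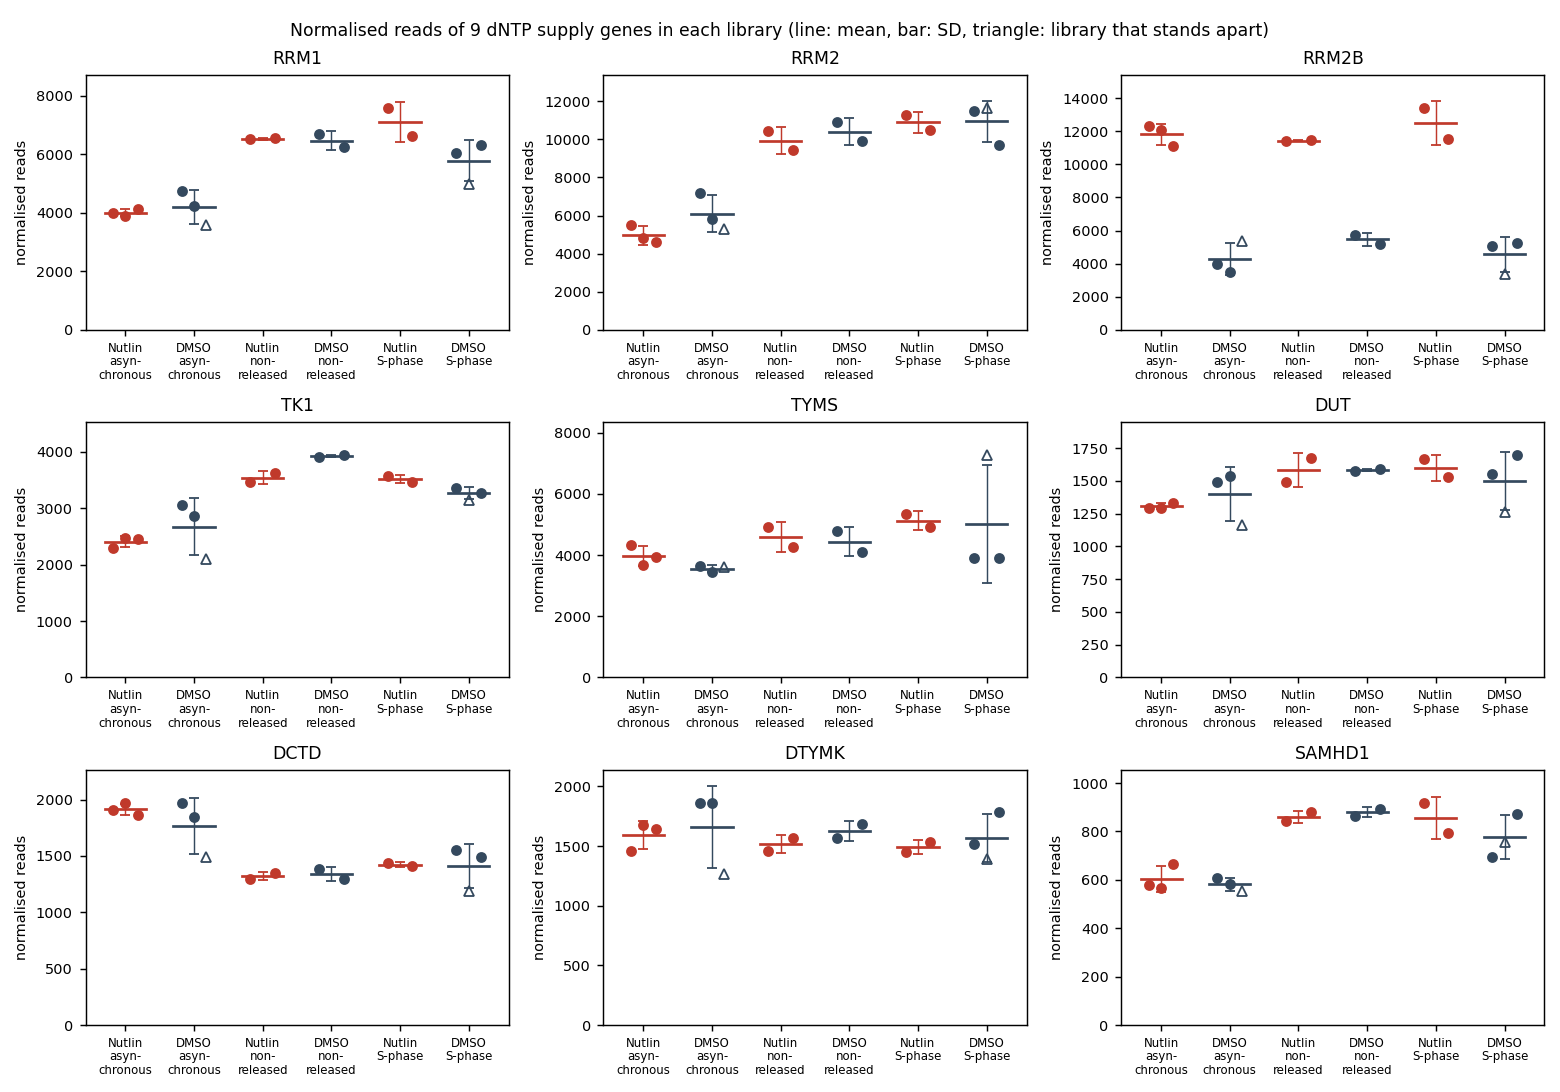
Normalised reads (y axis, from 0) of each gene in each of the 15 libraries, by group along the x axis, Nutlin in red and DMSO in dark blue. Lines are group means, bars are SD, and open triangles are the 2 libraries that stand apart; RRM2B separates by treatment, while the group means of RRM1, RRM2, TK1 and SAMHD1 lie higher, and those of DCTD lower, in both synchronised states than in asynchronous cells of the same treatment.

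With 15 libraries RRM2B was the only gene of the 9 to pass the test of Nutlin against DMSO, and it rose in all 3 states. In asynchronous cells it had 12294, 12066 and 11096 normalised reads with Nutlin, against 3982, 3494 and 5368 with DMSO. In non-released cells the values were 11395 and 11471 with Nutlin, against 5754 and 5169 with DMSO. S-phase cells gave 13408 and 11529 with Nutlin, against 5061, 3369 and 5255 with DMSO. Every Nutlin library lay above every DMSO library, in each state and across states, and the highest DMSO library was a non-released one. Mean normalised reads were 2.76 times those of DMSO in asynchronous, 2.09 times in non-released and 2.73 times in S-phase cells. On the log2 scale RRM2B rose by 1.47 ± 0.17 (SE, adjusted p = 0.000165), 1.06 ± 0.20 (adjusted p = 0.0224) and 1.46 ± 0.19 (adjusted p = 0.000674) in that order.

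This was 1 gene of the 9 higher and 0 lower in each state. Of all tested genes 1.91% were higher and 0.546% lower with Nutlin in asynchronous cells, 0.874% and 0.042% in non-released cells, and 1.84% and 0.161% in S-phase cells. Without both libraries that stand apart the rise of RRM2B was 1.65 ± 0.08 in asynchronous cells and 1.26 ± 0.09 in S-phase cells (adjusted p = 1.9e-08 and 1.2e-06). It stayed at 1.06 ± 0.09 in non-released cells (adjusted p = 1.25e-05). The non-released call rests on 2 libraries a group: leaving out any one of the 4 gave differences of 0.98 to 1.14 with adjusted p of 0.145 to 0.248, where the lone library left is assumed to vary like the other groups. Those 4 fits kept both libraries that stand apart. The call was also lost when genes with low values were kept in the test (adjusted p = 0.105).

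No difference of the RRM2B rise between states passed the test. With 15 libraries the difference of responses was -0.41 ± 0.26 for non-released minus asynchronous cells (95% confidence interval -0.98 to 0.15), -0.01 ± 0.25 for S-phase minus asynchronous cells (-0.55 to 0.52) and 0.40 ± 0.28 for S-phase minus non-released cells (-0.19 to 1.00), and these 3 share groups. With 13 libraries the first was -0.59 ± 0.13 (-0.86 to -0.32, adjusted p = 0.258), the second -0.39 ± 0.13 (-0.66 to -0.12, adjusted p = 0.493) and the third 0.20 ± 0.13 (-0.08 to 0.48, adjusted p = 0.994). The 13-library intervals of the first and the second, which are not adjusted for the number of genes, did not hold 0, and 0.0211%, 0% and 0% of all genes were called. No gene of the 9 passed a test of a difference of responses, where the smallest adjusted p was 0.836 with 15 libraries. Over the whole table limma with 15 libraries called 0 genes (0%) in each of the 3. Unadjusted p was under 0.05 for 155, 787 and 321 of the 14298 tested genes. If no response differed, a share of 0.05 of these genes would lie there on average. The 155 and 321 were well below that share, and the 787 slightly above it. The p-values of the first and the third thus ran large, for a cause not tested. The absence of calls therefore does not show that responses were equal. When genes with low values were kept, 34, 3 and 32 were called, and voom on the recovered reads called 0.

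Within a treatment, RRM2B passed no test between states with 15 libraries. From highest to lowest, the group means were 12468 ± 1329 normalised reads in Nutlin S-phase, 11819 ± 636 in Nutlin asynchronous, 11433 ± 53.7 in Nutlin non-released, 5462 ± 413 in DMSO non-released, 4562 ± 1038 in DMSO S-phase and 4281 ± 972 in DMSO asynchronous cells (SD, n = 2, 3, 2, 2, 3 and 3). The step between the Nutlin and the DMSO groups was the only one between neighbours in this order that passed a test with 15 libraries. Among Nutlin groups the differences were -0.05 for non-released minus asynchronous, 0.07 for S-phase minus asynchronous and 0.12 for S-phase minus non-released cells, with adjusted p of 0.805 to 0.872. Among DMSO groups, non-released cells were 0.37 ± 0.19 above asynchronous cells (adjusted p = 0.146), which became 0.54 ± 0.09 with 13 libraries (adjusted p = 0.000317). S-phase DMSO cells were 0.09 ± 0.17 above asynchronous DMSO cells with 15 libraries and 0.46 ± 0.09 above them with 13 (adjusted p = 0.00227). The library labelled DMSO asynchronous replicate 3, the one with epithelial markers and high CDKN1A and MDM2, had the highest RRM2B of its group, and the part of either in this result was not tested. DMSO S-phase replicate 2, the other library left out, had the lowest RRM2B of all 15, at 3369 normalised reads. Leaving out the library labelled DMSO asynchronous replicate 3 alone gave the non-released gain (0.54, adjusted p = 0.0236). It did not give the S-phase gain. There, leaving out any single library gave -0.05 to 0.29 with no call (lowest adjusted p = 0.15).

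**Figure D2:**
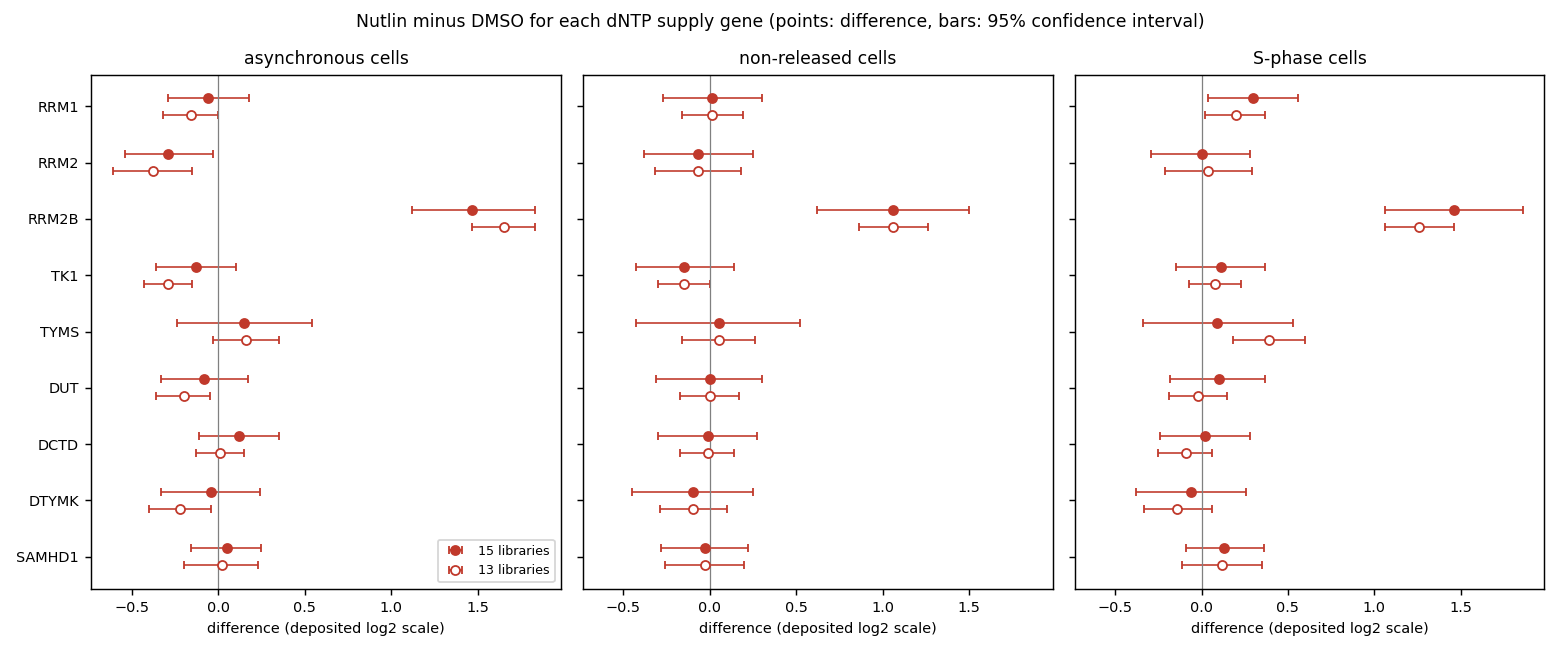
Nutlin minus DMSO (x axis, deposited log2 scale) for each gene, 1 panel per state, with 95% confidence intervals; filled points use 15 libraries and open points 13. RRM2B lies at 1.06 to 1.65 in all 3 panels, and the other genes lie between -0.38 and 0.39.

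RRM2, the S-phase small subunit, moved with the cell cycle state and not detectably with Nutlin in synchronised cells. Asynchronous cells had 5532, 4804 and 4590 normalised reads with Nutlin, against 7210, 5827 and 5289 with DMSO. Non-released cells had 10433 and 9439 with Nutlin, against 10917 and 9903 with DMSO. S-phase cells had 11277 and 10500 with Nutlin, against 11473, 11653 and 9720 with DMSO. All 9 libraries of the synchronised states lay above all 6 asynchronous libraries, while Nutlin and DMSO libraries overlapped in each state. In asynchronous cells only the library labelled DMSO asynchronous replicate 3, at 5289, overlapped with Nutlin libraries. The other DMSO libraries of that state, at 7210 and 5827, lay above all its Nutlin libraries. In asynchronous cells the Nutlin difference was -0.29 ± 0.12 (adjusted p = 0.332), and it was -0.38 ± 0.11 with 13 libraries, which passed the test (adjusted p = 0.0482). Leaving out the library labelled DMSO asynchronous replicate 3 alone gave -0.38 ± 0.12, which did not pass (adjusted p = 0.124). The intervals of the Nutlin difference reached from -0.38 to 0.25 in non-released cells and from -0.29 to 0.28 in S-phase cells.

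RRM2 rose in both synchronised states, whichever treatment was given. Non-released minus asynchronous cells gave 0.99 ± 0.13 with Nutlin (adjusted p = 0.000122) and 0.77 ± 0.13 with DMSO (adjusted p = 0.000704). S-phase minus asynchronous cells gave 1.12 ± 0.13 with Nutlin (adjusted p = 0.000108) and 0.84 ± 0.12 with DMSO (adjusted p = 0.000331). These 4 differences passed under every alternative run, with adjusted p up to 0.02, and mean normalised reads were 1.70 to 2.19 times those of asynchronous cells. Between S-phase and non-released cells RRM2 differed by 0.13 ± 0.15 with Nutlin and 0.07 ± 0.13 with DMSO, neither past the test. In these bulk samples, more cells of a phase and more RNA per cell cannot be told apart.

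RRM1, the large subunit that both small subunits pair with, was likewise higher in both synchronised states. Its values in asynchronous cells were 3982, 3911 and 4137 normalised reads with Nutlin, against 4749, 4250 and 3600 with DMSO. In non-released cells they were 6513 and 6552 with Nutlin, against 6700 and 6248 with DMSO. S-phase cells had 7591 and 6622 with Nutlin, against 6040, 4997 and 6310 with DMSO. No asynchronous library reached any synchronised one, and among S-phase cells both Nutlin libraries lay above the 3 DMSO libraries. RRM1 rose by 0.70 ± 0.12 with Nutlin and 0.63 ± 0.12 with DMSO in non-released against asynchronous cells (adjusted p = 0.000802 and 0.00161). For S-phase against asynchronous cells the rise was 0.81 ± 0.12 with Nutlin (adjusted p = 0.000525) and 0.46 ± 0.11 with DMSO (adjusted p = 0.00786), and the DMSO call was lost when the fit held the compared groups only (adjusted p = 0.086). The Nutlin difference in S-phase cells was 0.30 ± 0.12, with an adjusted p of 0.306, and was 0.20 ± 0.08 with 13 libraries.

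The balance of the 2 small subunit transcripts was compared per kilobase of annotated exons, within each library. The RRM2B level was 1.67, 1.88 and 1.81 times the RRM2 level in Nutlin asynchronous cells, against 0.41, 0.45 and 0.76 in DMSO asynchronous cells. In non-released cells the ratio was 0.82 and 0.91 with Nutlin, against 0.40 and 0.39 with DMSO. In S-phase cells it was 0.89 and 0.82 with Nutlin, against 0.33, 0.22 and 0.41 with DMSO. RRM2B therefore exceeded RRM2 per kilobase in the 3 Nutlin asynchronous libraries and in no other library. No test was made of the ratio, which combines the Nutlin rise of RRM2B with the state difference of RRM2. Lengths came from GENCODE v29, and the longest transcript in place of all exons moved no ratio by more than 0.01. The 2 small subunits together had 15686 to 24685 normalised reads in Nutlin libraries, against 9321 to 16671 in DMSO libraries.

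**Figure D3:**
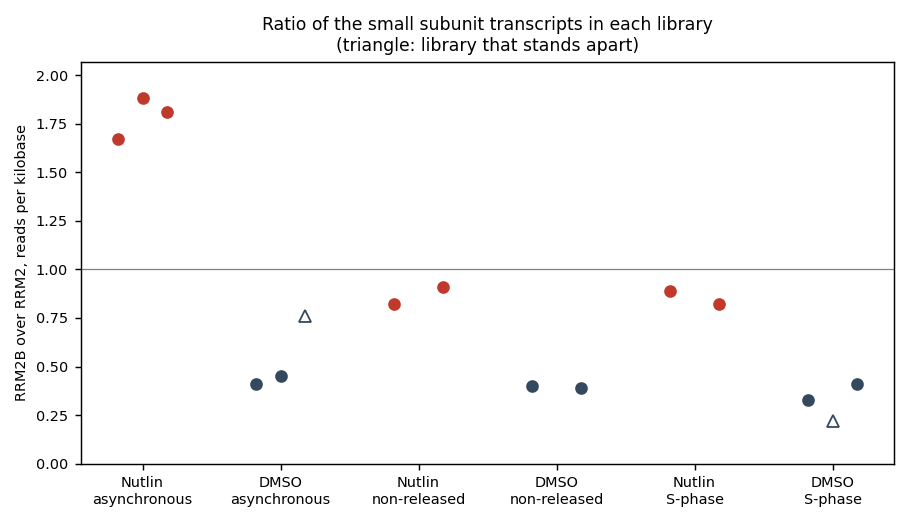
Ratio of RRM2B to RRM2 reads per kilobase (y axis, from 0) in each library, by group along the x axis; the grey line marks equal levels and open triangles the 2 libraries that stand apart. The 3 Nutlin asynchronous libraries sit at 1.67 to 1.88, the other Nutlin libraries at 0.82 to 0.91 and the DMSO libraries at 0.22 to 0.76.

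Among all 9 genes, levels per kilobase placed RRM2B next to TYMS in Nutlin asynchronous cells and lower in the order in DMSO asynchronous cells. With Nutlin the group means were 2388 ± 197 normalised reads per kilobase for TYMS, 2296 ± 124 for RRM2B, 1394 ± 57 for TK1, 1291 ± 96 for DTYMK, 1289 ± 128 for RRM2, 1194 ± 34 for RRM1, 844 ± 23 for DCTD, 422 ± 7 for DUT and 98.1 ± 9 for SAMHD1 (SD, n = 3). With DMSO the order was TYMS at 2142 ± 68, RRM2 at 1583 ± 257, TK1 at 1547 ± 292, DTYMK at 1348 ± 280, RRM1 at 1250 ± 171, RRM2B at 832 ± 189, DCTD at 779 ± 111, DUT at 451 ± 66 and SAMHD1 at 94.4 ± 4 (SD, n = 3). With Nutlin TYMS and RRM2B differed by less than the SD of either, as did DTYMK and RRM2, and with DMSO so did neighbours from RRM2 down to RRM1, and RRM2B and DCTD. RRM2 lay between TYMS and RRM2B in the synchronised Nutlin groups, at 2575 ± 182 in non-released cells (TYMS 2761 ± 287, RRM2B 2221 ± 10) and 2822 ± 142 in S-phase cells (TYMS 3086 ± 179, RRM2B 2422 ± 258), normalised reads per kilobase (SD, n = 2). SAMHD1 was the lowest per kilobase in every group, at 139 ± 14 to 140 ± 4 in the synchronised Nutlin groups and 126 ± 15 to 143 ± 3 in the synchronised DMSO groups. Levels between genes also depend on which exons are transcribed, and DUT would be 1.44 times higher with its longest transcript as its length.

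TK1, the cytosolic thymidine kinase of the salvage pathway, was also higher in non-released cells with either treatment and in S-phase cells with Nutlin, while its S-phase difference with DMSO did not pass. It had 2294, 2477 and 2449 normalised reads in Nutlin asynchronous cells, against 3059, 2857 and 2101 in DMSO asynchronous cells. Non-released cells had 3468 and 3621 with Nutlin, against 3913 and 3938 with DMSO. In S-phase cells the values were 3576 and 3468 with Nutlin, against 3367, 3155 and 3271 with DMSO. The lowest of all 15 was the library labelled DMSO asynchronous replicate 3, and the other 2 libraries of its group lay above all 3 Nutlin asynchronous ones.

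Non-released cells had TK1 0.55 ± 0.12 (Nutlin, adjusted p = 0.00379) and 0.56 ± 0.12 (DMSO, adjusted p = 0.00321) above asynchronous cells. S-phase cells were 0.54 ± 0.12 above asynchronous cells with Nutlin (adjusted p = 0.00636), a call lost without Nutlin S-phase replicate 1 (adjusted p = 0.0526), and 0.30 ± 0.11 above them with DMSO (adjusted p = 0.0544). That DMSO difference was 0.16 ± 0.07 with 13 libraries (adjusted p = 0.0884) and 0.14 to 0.40 on leaving out each library. The Nutlin difference of TK1 in asynchronous cells was -0.13 ± 0.11 (adjusted p = 0.747). It was -0.29 ± 0.07 without the library labelled DMSO asynchronous replicate 3, which passed the test (adjusted p = 0.0469), and -0.29 ± 0.06 with 13 libraries (adjusted p = 0.0123). With 13 libraries TK1 was also 0.24 lower in S-phase than in non-released DMSO cells (difference -0.24 ± 0.07, adjusted p = 0.0351), against -0.26 ± 0.12 with 15 (adjusted p = 0.235).

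SAMHD1, which cleaves dNTPs back to nucleosides and is known in human cells to limit the pool outside S-phase, also rose in both synchronised states. Asynchronous cells had 580, 568 and 664 normalised reads with Nutlin, against 608, 583 and 554 with DMSO. Non-released cells had 843 and 879 with Nutlin, against 864 and 894 with DMSO. S-phase cells had 918 and 793 with Nutlin, against 696, 757 and 874 with DMSO. Treatments overlapped in every state, and the highest asynchronous library, at 664, lay below the lowest synchronised one, at 696. The non-released rise was 0.48 ± 0.11 with Nutlin (adjusted p = 0.00382) and 0.55 ± 0.11 with DMSO (adjusted p = 0.00145). In S-phase it was 0.47 ± 0.11 with Nutlin (adjusted p = 0.00668), lost without Nutlin S-phase replicate 1 (adjusted p = 0.0853), and 0.38 ± 0.09 with DMSO (adjusted p = 0.0102), lost when the fit held the compared groups only (adjusted p = 0.0849).

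DCTD, which deaminates dCMP to the dUMP that TYMS uses, was the single gene of the 9 called lower between states with 15 libraries. It had 1908, 1967 and 1865 normalised reads in Nutlin asynchronous cells, against 1970, 1844 and 1486 in DMSO asynchronous cells. The non-released values were 1299 and 1349 with Nutlin, against 1380 and 1293 with DMSO. The S-phase values were 1439 and 1408 with Nutlin, against 1550, 1191 and 1493 with DMSO. The library labelled DMSO asynchronous replicate 3 was the lowest asynchronous library, below 2 DMSO S-phase libraries, and every other asynchronous library lay above every synchronised one. DCTD fell by 0.51 ± 0.12 with Nutlin (difference -0.51, adjusted p = 0.00554) and by 0.38 ± 0.12 with DMSO (difference -0.38, adjusted p = 0.0273) in non-released against asynchronous cells. For S-phase against asynchronous cells the difference was -0.41 ± 0.12 with Nutlin (adjusted p = 0.0249) and -0.31 ± 0.11 with DMSO (adjusted p = 0.0465). The DMSO falls were calls in 5 of 13 and 6 of 14 alternatives, and the Nutlin falls in 12 of 13 and 7 of 13. With 13 libraries all 4 passed, the non-released DMSO difference being -0.50 ± 0.07.

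TYMS, which makes dTMP from dUMP, passed no test with 15 libraries. Asynchronous cells had 4317, 3665 and 3925 normalised reads with Nutlin, against 3648, 3432 and 3598 with DMSO. Non-released cells had 4927 and 4252 with Nutlin, against 4778 and 4107 with DMSO. S-phase cells had 5338 and 4918 with Nutlin, against 3892, 7259 and 3920 with DMSO. The highest of all 15 values was in DMSO S-phase replicate 2, the library with the fewest reads assigned to genes. Without it both Nutlin S-phase libraries lay above the DMSO ones. Without both libraries that stand apart the Nutlin difference in S-phase cells was 0.39 ± 0.10 (adjusted p = 0.0404), against 0.09 ± 0.20 with 15, and TYMS was also higher in non-released than in asynchronous DMSO cells (0.32 ± 0.10, adjusted p = 0.0151) and in S-phase than in asynchronous Nutlin cells (0.37 ± 0.09, adjusted p = 0.00495). For S-phase against asynchronous DMSO cells TYMS differed by 0.43 ± 0.18 with 15 libraries (adjusted p = 0.0952) and by 0.14 ± 0.10 with 13 (adjusted p = 0.295). TYMS overlaps ENOSF1 on the opposite strand. ENOSF1 passed no test with 15 libraries, but with 13 it was higher in non-released than in asynchronous cells, by 0.30 ± 0.11 with Nutlin (adjusted p = 0.0347) and 0.37 ± 0.12 with DMSO (adjusted p = 0.0192). Since the sources used here do not give the strand of counting, reads of the 2 genes cannot be told apart where they overlap.

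DUT, which clears dUTP and so supplies dUMP, and DTYMK, which phosphorylates dTMP to dTDP, were steadier with 15 libraries. DUT had 1292 to 1674 normalised reads in Nutlin libraries, against 1160 to 1694 in DMSO libraries. DTYMK had 1449 to 1674 in Nutlin libraries, against 1263 to 1861 in DMSO libraries. Both were lowest in the library labelled DMSO asynchronous replicate 3, and neither passed any of the 12 tests with 15 libraries. DUT passed with 13 libraries in both comparisons with asynchronous cells under Nutlin, at 0.26 ± 0.07 for non-released (adjusted p = 0.0078) and 0.28 ± 0.07 for S-phase cells (adjusted p = 0.00711). The 95% confidence intervals of the 15-library Nutlin difference of DTYMK reached from -0.33 to 0.24 in asynchronous cells, from -0.45 to 0.25 in the block and from -0.38 to 0.26 in S-phase. With 13 libraries the Nutlin difference of DTYMK in asynchronous cells was -0.22 ± 0.08 (-0.4 to -0.04, adjusted p = 0.159). For DUT it was -0.2 ± 0.07 there (-0.36 to -0.05, adjusted p = 0.126). Neither passed the test, while both intervals, not adjusted for the number of genes, lay on the negative side. Pseudogenes by name in GENCODE v29 number 8 for DUT, 3 for RRM2 and 2 for TYMS, and reads of near-identical copies may be counted with or lost from these genes.

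Counted over the 9 genes, non-released against asynchronous cells gave 4 higher and 1 lower both with Nutlin and with DMSO, the same 5 genes in each: RRM1, RRM2, TK1 and SAMHD1 higher and DCTD lower. Of all tested genes 17.3% were higher and 17.2% lower with Nutlin, and 16.9% higher and 17% lower with DMSO, and the median difference of the 9 was 0.26 and 0.37, against 0.00 and -0.01 over all genes. S-phase against asynchronous cells gave 4 higher and 1 lower with Nutlin, beside 13.4% and 10.6% of all genes, and 3 higher and 1 lower with DMSO, beside 14.1% and 13.6%. S-phase against non-released cells gave no call among the 9, beside 1.6% higher and 0.832% lower of all genes with Nutlin, and 4.11% and 2.89% with DMSO. In limma 0 of the 9 with Nutlin and 1 with DMSO had an unadjusted p under 0.05, and voom on the recovered reads called 0 as well. Of all differences tested for the 9 genes in 12 comparisons, 22 passed with 15 libraries and 32 with 13, with 22 in both. With 13 libraries the share of all genes called in either direction was 6.26%, 3.23% and 3.97% for Nutlin against DMSO in the order of states above, 50.2% with Nutlin and 48% with DMSO for non-released against asynchronous cells, 41.2% and 31.9% for S-phase against asynchronous cells, and 10.8% and 14.3% for S-phase against non-released cells. The comparisons with asynchronous cells share those libraries, so their calls are not separate evidence.

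**Figure D4:**
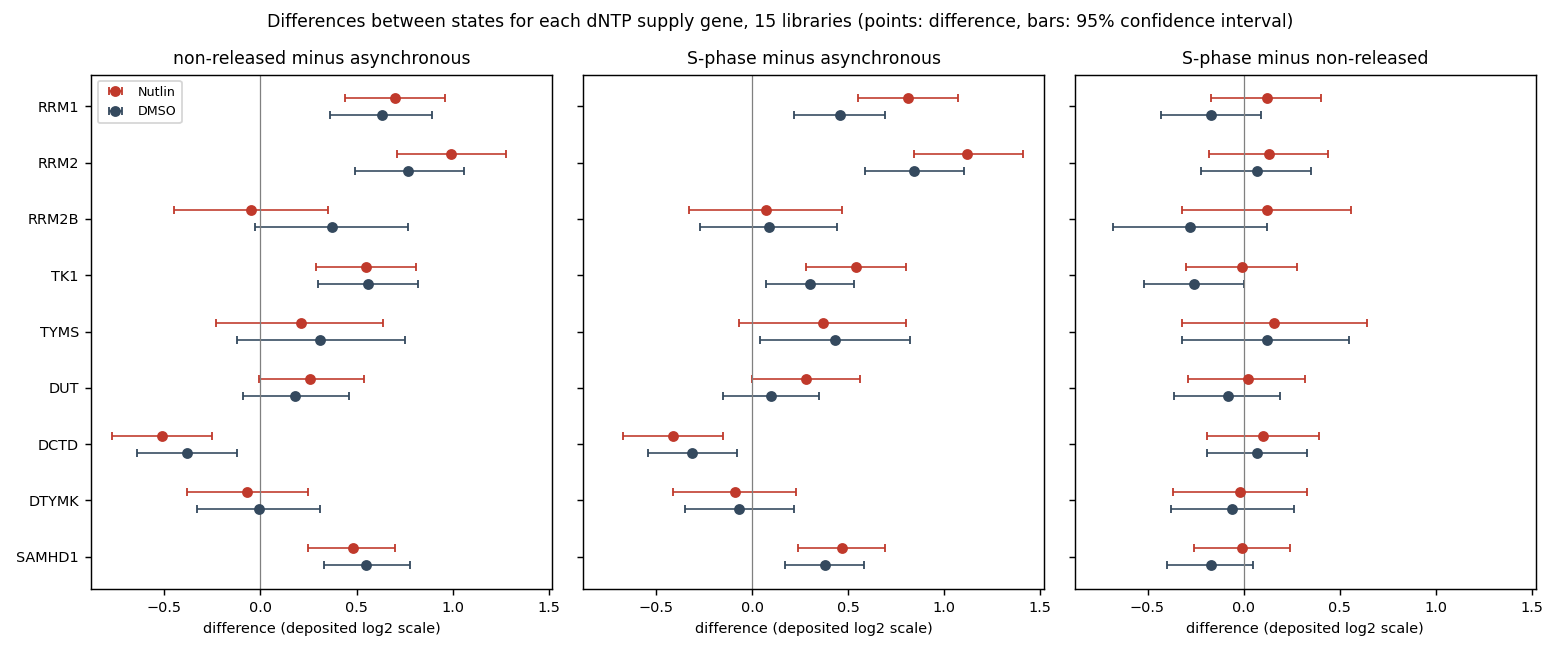
Differences between states (x axis, deposited log2 scale) for each gene with 15 libraries, Nutlin in red above DMSO in dark blue, with 95% confidence intervals. RRM1, RRM2, TK1 and SAMHD1 lie at 0.30 to 1.12 in both comparisons with asynchronous cells, DCTD lies at -0.51 to -0.31, and all 9 lie within -0.28 and 0.16 for S-phase minus non-released.

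The 250 bases before the start of transcription are shown for the 4 genes called higher in non-released cells with either treatment and for DCTD, called lower there. Sequences are from RefSeq on build GRCh38.p14, written in the direction of transcription, and capitals mark matches to 3 short motifs. The E2F core was searched as TTCCCGC, with the variants TTGGCGC, further TTCGCGC, and finally TTGCCGC. The other words were CCAAT for the CCAAT box, and TTTGAA besides the palindrome TTCGAA for the cell cycle homology region (CHR). Both strands were read, and no 2 matches overlapped in these windows. E2F factors drive genes of S-phase entry, NF-Y binds CCAAT boxes, and the CHR is bound by MuvB complexes. The windows are chr11:4094435-4094684 on the plus strand for RRM1, chr2:10122489-10122738 on the plus strand for RRM2, chr17:78187053-78187302 on the minus strand for TK1, chr20:36951709-36951958 on the minus strand for SAMHD1 and chr4:182917387-182917636 on the minus strand for DCTD.
RRM1: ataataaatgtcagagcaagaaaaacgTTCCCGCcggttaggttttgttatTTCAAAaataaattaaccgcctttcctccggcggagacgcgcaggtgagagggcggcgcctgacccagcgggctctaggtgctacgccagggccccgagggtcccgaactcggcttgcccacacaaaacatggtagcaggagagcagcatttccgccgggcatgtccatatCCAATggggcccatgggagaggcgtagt
RRM2: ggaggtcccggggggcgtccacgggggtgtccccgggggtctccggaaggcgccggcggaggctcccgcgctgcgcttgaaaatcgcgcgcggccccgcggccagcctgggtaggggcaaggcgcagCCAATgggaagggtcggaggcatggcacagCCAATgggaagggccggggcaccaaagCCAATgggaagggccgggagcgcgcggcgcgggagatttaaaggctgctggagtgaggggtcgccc
TK1: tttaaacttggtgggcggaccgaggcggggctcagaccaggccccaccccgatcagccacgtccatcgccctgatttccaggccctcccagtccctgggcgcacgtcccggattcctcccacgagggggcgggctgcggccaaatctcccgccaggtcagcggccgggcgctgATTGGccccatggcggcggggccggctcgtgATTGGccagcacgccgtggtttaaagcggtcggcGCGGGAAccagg
SAMHD1: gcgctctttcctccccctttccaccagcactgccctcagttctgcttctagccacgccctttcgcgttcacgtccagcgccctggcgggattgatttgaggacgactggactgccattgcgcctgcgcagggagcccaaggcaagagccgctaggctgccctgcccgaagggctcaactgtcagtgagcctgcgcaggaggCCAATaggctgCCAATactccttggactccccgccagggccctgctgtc
DCTD: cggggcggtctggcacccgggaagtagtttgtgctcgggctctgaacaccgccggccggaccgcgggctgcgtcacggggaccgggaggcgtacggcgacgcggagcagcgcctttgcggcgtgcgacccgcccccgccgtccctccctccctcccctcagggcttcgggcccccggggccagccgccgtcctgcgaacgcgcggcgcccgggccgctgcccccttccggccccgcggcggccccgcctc
RRM1 held 1 match of each motif, with the E2F core at -223 to -217 from the start. RRM2 held 3 CCAAT boxes and no match of the others, the nearest box ending at -62. TK1 held 2 CCAAT boxes, both on the antisense strand, and an E2F core at -12 to -6. SAMHD1 held 2 CCAAT boxes and DCTD no match. The 4 genes called higher therefore had a CCAAT box in common in this window, which 32.7% of 27303 promoters of the same length hold, against 10.5% for the E2F core and 14.9% for the CHR. Over the 8 genes with a window shown in the map of matches, 4 held an E2F core, 5 a CCAAT box and 3 a CHR, among them TYMS, DUT and DTYMK, which passed no test with 15 libraries. A match is a description of the letters and not of a bound site, and no match says only that these letters are not in this window.

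**Figure D5:**
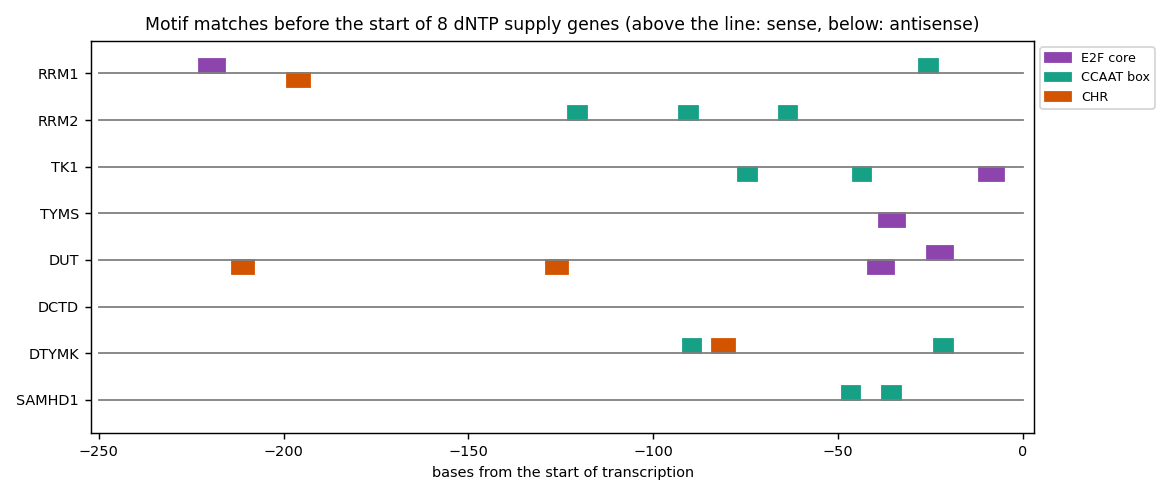
Positions of motif matches (x axis, bases from the start of transcription) in 8 genes, boxes above the line for the sense and below it for the antisense strand. RRM1, RRM2, TK1 and SAMHD1 each hold a CCAAT box, as does DTYMK, while DCTD holds no match.

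Scaled by total reads in place of size factors, the median difference of all genes lay at 0.13 (Nutlin) and 0.14 (DMSO) for non-released minus asynchronous cells. For S-phase minus non-released cells it lay at -0.11 (Nutlin). Differences are given on the deposited scale, where these medians were 0.00, -0.01 and 0.01. A size factor per library can by itself hold such medians small, so they do not tell which scaling is nearer the truth. With total reads, the share of calls that were higher for non-released minus asynchronous cells was 69.3% with Nutlin and 72% with DMSO. On the deposited scale it was 50.1% and 49.9%. Under the scaling by total reads RRM1, RRM2, TK1 and SAMHD1 still passed as higher, and the fall of DCTD in DMSO cells was -0.24 and did not pass (adjusted p = 0.106). Gained there were RRM2B with DMSO (0.52, adjusted p = 0.0468) and DUT with Nutlin (0.40, adjusted p = 0.0227) and with DMSO (0.34, adjusted p = 0.0443). For S-phase minus asynchronous DMSO cells the share was 69.1% against 50.9%, TK1 was gained (0.38, adjusted p = 0.0131) and DCTD was lost (-0.23, adjusted p = 0.124). For S-phase minus non-released cells it was 39.1% against 65.8% with Nutlin and 38.5% against 58.7% with DMSO, and none of the 9 genes passed under either scaling.

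Other genes of nucleotide synthesis, salvage and breakdown were described from a list of 58, of which 54 were tested. For Nutlin against DMSO none of them passed in asynchronous or non-released cells and 1 did in S-phase cells, AK3, a mitochondrial adenylate kinase (0.47 ± 0.09, adjusted p = 0.0153). Of all genes 1.91% were higher and 0.546% lower in asynchronous cells, 0.874% and 0.042% in non-released cells, and 1.84% and 0.161% in S-phase cells. With 13 libraries 2 of the 54 were lower in asynchronous cells, beside 6.26% of all genes in either direction. These were DCTPP1, a dCTP pyrophosphatase (-0.37 ± 0.09, adjusted p = 0.03), and SLC29A1, a nucleoside transporter (-0.28 ± 0.08, adjusted p = 0.0381), named after their values were seen. Non-released against asynchronous cells gave 13 higher and 14 lower with Nutlin, and 13 higher and 15 lower with DMSO, beside the 16.9% to 17.3% of all genes in each direction given above. With 13 libraries these counts were 14 higher and 24 lower with Nutlin, and 13 higher and 22 lower with DMSO, beside 50.2% and 48% of all genes in either direction. Among the genes called, SHMT1, the cytosolic enzyme that supplies one-carbon units for dTMP synthesis, was 0.83 ± 0.10 higher with either treatment (adjusted p = 6.85e-05 with Nutlin and 6.58e-05 with DMSO). UCK2, a uridine-cytidine kinase, was lower, with differences of -0.86 ± 0.10 with Nutlin and -0.77 ± 0.10 with DMSO (adjusted p = 5.23e-05 and 0.000117). DHODH, of pyrimidine synthesis, was lower too, by a difference of -0.99 ± 0.13 with Nutlin and -0.70 ± 0.13 with DMSO (adjusted p = 0.000137 and 0.0015). S-phase against asynchronous cells gave 10 higher and 9 lower with Nutlin, beside 13.4% and 10.6% of all genes, and 5 higher and 12 lower with DMSO, beside 14.1% and 13.6%. With 13 libraries these were 12 higher and 18 lower with Nutlin, and 8 higher and 14 lower with DMSO, beside 41.2% and 31.9% of all genes in either direction. Between S-phase and non-released cells 1 was higher and 0 lower with Nutlin, beside 1.6% and 0.832% of all genes. With DMSO 1 was higher and 2 lower there, beside 4.11% and 2.89%. With 13 libraries 4 were higher and 0 lower with Nutlin, and 4 higher and 2 lower with DMSO, beside 10.8% and 14.3% of all genes in either direction. CTPS, a CTP synthase, was the one higher in S-phase with 15 libraries, by 0.67 ± 0.14 with Nutlin and 0.91 ± 0.13 with DMSO (adjusted p = 0.0241 and 0.000773). Its means on the deposited scale were lowest in the block. With DMSO they were 12.63 in asynchronous, 11.85 in non-released and 12.76 in S-phase cells, and with Nutlin 12.73, 12.17 and 12.84. The 54 had a median difference of -0.17 with Nutlin and -0.09 with DMSO for non-released minus asynchronous cells, against 0.00 and -0.01 over all genes.

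The genes whose levels ran most like those of a described gene were found by Pearson's r over the 15 libraries, which share the same groups. Among the genes most like RRM2B were FAS (r = 0.994), a death receptor, and FBXW7 (0.98), a ubiquitin ligase subunit. With 13 libraries FAS was again among the closest, as was MDM2 (0.984). For RRM2 they were KIAA1279 (0.983), FANCI (0.977), of the Fanconi anaemia pathway, and DPYSL2 (0.971). TK1 ran closest to C12orf32 (0.971), CNP (0.97) and RNASEH2A (0.966), a subunit of ribonuclease H2, and SAMHD1 to ATL1 (0.967), CLGN (0.954) and BRP44 (0.953). With 13 libraries KIAA1279 was still among the closest 3 for RRM2, CNP for TK1 and BRP44 for SAMHD1, and the other genes named for these were not.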

How the data were processed

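Per the labels' protocols, TruSeq libraries of total RNA were sequenced from 1 end for 50 bases. Per the submitters' processing notes, the tools were DESeq2 1.10.1, HTSeq, TopHat 0.9 and CASAVA 1.8.2, and the build was hg19. The sources used here do not give their roles, the annotation or the strand of counting. The authors deposited 1 table of variance-stabilised values, on a log2 scale at high expression, which compresses differences of genes with few reads.

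Normalised reads were recovered by inverting the transformation, with the lowest value, 4.85867, standing for 0 reads. Scaled by 1 factor per library, at least 99% of values in each library lay within 0.05 of a whole read. The recovered reads assigned to genes summed to 6.05 to 23.4 M per library (M for mega), and the number of reads sequenced was not recovered. Reads are not independent molecules, and their number bounds counting error only.

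Groups and replicate numbers came from the library titles. The test was limma 3.58.1 (R 4.3.3), fitting 1 mean for each group to 15 libraries, with trended eBayes moderation (4.66 prior degrees of freedom), two-sided, in 12 comparisons. Benjamini-Hochberg adjustment ran over the 14298 genes that were 1 unit or more above the lowest value in 2 or more libraries. The tests were checked on simulated data. The simulated spread came from groups without the libraries that stand apart, so the check does not cover such libraries. Alternatives were no filter, a stricter one of 3 units, the compared groups only, a replicate block, 13 libraries, voom on recovered reads with either scaling, quantile normalisation, and leaving out each library.

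The 9 genes, the other lists and the tests were chosen with earlier results of these data known. All 9 genes are named in every comparison. Of other nucleotide genes, up to 4 called genes of smallest adjusted p per comparison could be named, and the 3 genes of most similar pattern for RRM2, RRM2B, TK1 and SAMHD1. One gene of similar pattern is not reported here. Lengths and overlaps came from GENCODE v29 on GRCh38, promoters from RefSeq on GRCh38.p14, whose table held windows for the genes shown. As the builds differ from hg19, coordinates serve the printed sequences only.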

Additional observations from a re-analysis of the deposited data

How the results depend on the processing

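The count of the 9 genes called moved by over 1.5 times under these settings. For Nutlin against DMSO in asynchronous cells it was 1 with 15 libraries, 3 without both libraries that stand apart and 1 to 2 on leaving out each library. In non-released cells the count of the 9 was 1, and 0 with no filter on low values and 0 on leaving out each library. In S-phase cells it was 1, and 2 without both libraries, beside 286 and 564 genes over the whole table. For S-phase against asynchronous DMSO cells it was 4, and 1 with the compared groups only, beside 3955 and 1053 genes. For S-phase against non-released DMSO cells it was 0, and 1 without both libraries, beside 1000 and 2032 genes. For S-phase against asynchronous Nutlin cells it was 5, and 2 to 4 on leaving out each library. The cause of these changes was not tested, and some settings also hold fewer libraries.

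Genes called over the whole table ranged, across alternatives other than the added one, from 171 to 888 in asynchronous, 22 to 623 in non-released and 88 to 564 in S-phase cells for Nutlin against DMSO, beside 351, 131 and 286 with 15 libraries. For S-phase against non-released cells the range was 72 to 1539 with Nutlin and 233 to 2032 with DMSO, beside 348 and 1000. For S-phase against asynchronous cells it was 1802 to 5847 with Nutlin and 1053 to 4526 with DMSO, beside 3434 and 3955. For non-released against asynchronous cells it was 2570 to 7720 with Nutlin and 2400 to 6812 with DMSO, beside 4933 and 4854. Of the single differences of the 9 genes under these alternatives, 1479 kept their direction and side of the threshold, 32 lost a call and 28 gained one, and a change of sign was counted only where either value passed.

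Same-numbered replicates do not pair by the labels. Deviations of same-numbered asynchronous libraries from their group mean correlated at 0.313, 0.136 and 0.0744 between treatments. The last is of replicate 3, whose DMSO library has values that go against its label. Of all 7 such pairs 6 lay over 0.1, at 0.325 in both non-released pairs and 0.341 and 0.351 in the S-phase pairs. With 2 libraries in each group the deviations mirror each other, so both non-released pairs give the same value by construction. As the labels give no pairing and not every pair lay over 0.1, the numbers were not taken as pairs. With a replicate block, 1 of the 9 genes was called in each Nutlin comparison, and RRM2B in non-released against asynchronous DMSO cells (0.45, adjusted p = 0.0464) and TK1 in S-phase against asynchronous DMSO cells (0.30, adjusted p = 0.0476) were gained. The block without both libraries that stand apart, added after seeing the data, gave 4 calls in asynchronous and 2 in S-phase cells for Nutlin against DMSO, 8 for non-released against asynchronous DMSO cells and 3 for S-phase against non-released DMSO cells, where TYMS turned to -0.24 (adjusted p = 0.0429). Over the whole table it called 1523, 621, 7578 and 2279 genes in that order, and 677 for Nutlin against DMSO in non-released cells. SAMHD1 lost its call for S-phase against asynchronous DMSO cells under it (0.23, adjusted p = 0.0674). DTYMK gained calls under it, for Nutlin against DMSO in asynchronous cells (-0.26, adjusted p = 0.021) and for non-released against asynchronous DMSO cells (-0.19, adjusted p = 0.0305).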
